A study of Mus musculus with 4 samples.

Results

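A group of 10 genes of the adhesive and matricellular extracellular matrix was followed in smooth muscle cells of the mouse ascending aorta and aortic arch. They are the thrombospondins Thbs1, Thbs2, Thbs4 and Comp, the cell-adhesive glycoproteins Fn1 and Npnt, periostin (Postn), tenascin C (Tnc), and the SPARC family genes Sparc and Sparcl1. They were picked by symbol, and all 10 were found once each among the 32287 genes of the matrices. The data are 4 droplet single-cell 3′ RNA libraries, 2 from receptor-deleted mice (KO) and 2 from controls (WT). KO mice (Tgfbr1/2iSMCKO) carried Tgfbr1f/f and Tgfbr2f/f with Myh11-CreERT2 and mT/mG, so that Cre under the smooth muscle Myh11 promoter is to delete both TGF-beta receptor genes. WT mice (GFPiSMC) carried Myh11-CreERT2 and mT/mG alone. Both genotypes were C57BL/6J, carried Cre and the reporter that turns from tdTomato to GFP on recombination, received tamoxifen for 5 days and were 12 weeks old. Tamoxifen was 1 mg/d from 4 weeks or 2 mg/d from 11 weeks of age. The course each library received is not given, so a difference in course cannot be told apart from genotype. Nothing states that the replicates came from separate mice beyond the mention of individual aortic segments, so p-values measure only the spread between these samples, which may be technical. Live single GFP-positive cells were sorted, so the sort selects cells in which Cre recombined the reporter.

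These proteins are secreted and sit between cells and the structural fibres. Thrombospondins are modular proteins that bind cell surface receptors, collagens and proteases, and Thbs1 can free active TGF-beta from its latent complex. Fibronectin is assembled by integrins into fibrils on which other matrix proteins are laid down, and its gene, with those of periostin and tenascin C, is a classical target of TGF-beta in mesenchymal cells. SPARC binds collagen and takes part in its handling outside the cell. Nephronectin is a ligand of the integrin with the alpha 8 chain, which smooth muscle cells carry.

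The libraries held 59203071 and 50605349 UMIs (unique molecular identifiers, each a counted transcript) in 4252 and 3522 kept cells of KO 1 and KO 2, and 35255748 and 49723949 UMIs in 2429 and 3265 kept cells of WT 1 and WT 2. Between 3 and 6 cell barcodes were shared by any pair of libraries. Smooth muscle markers summed to 58544 and 54744 CPM in KO 1 and KO 2, against 50526 and 52854 CPM in WT 1 and WT 2, where CPM is the UMI count scaled to a common TMM-adjusted library total. The targeted genes were still counted: Tgfbr1 stood at 73.3 and 76.1 CPM in KO and 80.8 and 82.3 CPM in WT, and Tgfbr2 at 46.5 and 47.3 CPM in KO and 51.6 and 45.1 CPM in WT, and neither passed the test (edgeR adjusted p = 0.203 for Tgfbr1 and 0.752 for Tgfbr2). The 3′ tags may lie outside the deleted exons and so check nothing about recombination. Cells of a type other than smooth muscle were rare. A cluster of 9 cells led by endothelial genes such as Pecam1 and Vwf, all in KO, was kept in the sums.

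In the GRCm38 build (GENCODE M21) the genes lie as follows: Thbs1 on chromosome 2 (118111876 to 118127133), Thbs2 on 17 (14665500 to 14694235), Thbs4 on 13 (92751590 to 92794818) and Comp on 8 (70373558 to 70382066). Fn1 is on chromosome 1 (71585520 to 71653200), Sparc on 11 (55394500 to 55423183) and Sparcl1 on 5 (104079111 to 104113733). Postn (54361109 to 54391037) and Npnt (132881745 to 132950291) are both on chromosome 3. Tnc, on chromosome 4 (63959785 to 64047015), lies 16.54 Mb from the floxed Tgfbr1. All are protein-coding, and each count stands for a whole gene, with no split by exon or by UTR. The genes Thbs1, Fn1, Tnc and Sparcl1 overlap a gene on the opposite strand, and none of those antisense genes exceeded 1.79 CPM in any library.

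RefSeq promoter sequences (GRCm38.p6) were found for 6 of the 10 genes, namely Thbs2, Thbs4, Tnc, Postn, Sparc and Npnt, with 9 start sites in all. The 250 bases before the start are printed for 4 genes that were lower in KO and, for comparison, for Tnc, which did not pass the test. Capitals mark every match to the SMAD-binding letters CAGAC or to the TATA box letters TATAAA. A match on the opposite strand reads GTCTG or TTTATA.
Sparc, chr11:55420081-55420330, minus strand: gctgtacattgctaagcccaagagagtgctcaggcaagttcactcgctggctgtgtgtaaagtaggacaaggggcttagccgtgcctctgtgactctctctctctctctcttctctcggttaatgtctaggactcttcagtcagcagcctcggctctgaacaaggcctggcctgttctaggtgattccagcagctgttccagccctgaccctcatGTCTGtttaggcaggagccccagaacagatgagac
Thbs2, chr17:14694263-14694512, minus strand: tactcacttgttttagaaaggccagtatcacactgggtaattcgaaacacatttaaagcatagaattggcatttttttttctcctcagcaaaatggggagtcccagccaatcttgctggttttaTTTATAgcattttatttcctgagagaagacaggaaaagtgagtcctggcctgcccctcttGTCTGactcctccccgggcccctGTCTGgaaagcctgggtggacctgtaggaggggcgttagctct
Postn, chr3:54360857-54361106, plus strand: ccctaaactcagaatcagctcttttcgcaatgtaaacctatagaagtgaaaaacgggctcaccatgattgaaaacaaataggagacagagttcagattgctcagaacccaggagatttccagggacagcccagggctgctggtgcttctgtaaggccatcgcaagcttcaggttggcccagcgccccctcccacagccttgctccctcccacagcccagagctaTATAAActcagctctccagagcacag
Npnt, chr3:132950292-132950541, minus strand: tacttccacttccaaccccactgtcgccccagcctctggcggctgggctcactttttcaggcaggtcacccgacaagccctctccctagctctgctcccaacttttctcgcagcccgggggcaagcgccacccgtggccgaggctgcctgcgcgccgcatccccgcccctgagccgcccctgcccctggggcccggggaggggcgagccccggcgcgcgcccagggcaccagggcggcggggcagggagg
Tnc, chr4:64047016-64047265, minus strand: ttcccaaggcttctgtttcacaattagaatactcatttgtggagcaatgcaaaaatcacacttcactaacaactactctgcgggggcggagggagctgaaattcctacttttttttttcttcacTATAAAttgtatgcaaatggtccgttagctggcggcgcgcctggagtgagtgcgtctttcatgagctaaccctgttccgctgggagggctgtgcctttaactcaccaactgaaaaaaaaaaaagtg
The Sparc promoter held 1 match to CAGAC and the Thbs2 promoter 2, at 35 to 31, 66 to 62 and 43 to 39 bases before the start. All 3 are on the opposite strand. The printed Postn, Npnt and Tnc windows held none, while the other annotated start of Postn and that of Tnc each held 1. Postn had TATAAA 26 to 21 bases before the printed start. CAGAC occurs in 42.2% of all 32851 RefSeq promoters of this length and TATAAA in 12.4%, so these matches are a description of the letters only. No start site of the 6 genes matched the palindrome GTCTAGAC, the AP-1 letters TGANTCA or the CArG box, which 0.167%, 6.75% and 1.47% of all promoters hold. The TEAD letters GGAATG, present in 12.6% of all promoters, matched Thbs4 alone, at 2 overlapping places.

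Of the 10 genes 7 fell in KO cells, Thbs1 rose, Tnc did not pass the test and Thbs4 was not detected. By edgeR's quasi-likelihood test across 14474 genes, 11.1% of all tested genes were lower in KO and 9.17% were higher at an adjusted p under 0.05, 20.3% in all. The median log2 difference was −0.78 over the 9 tested members and −0.004 over all tested genes. Among the members Thbs1 rose and Thbs2 and Sparc fell by at least 2-fold, as did 2.99% (higher) and 2.71% (lower) of all tested genes. KO and WT libraries did not overlap for any of the 9, as was also so for 63.5% of all tested genes.

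**Figure D1:**
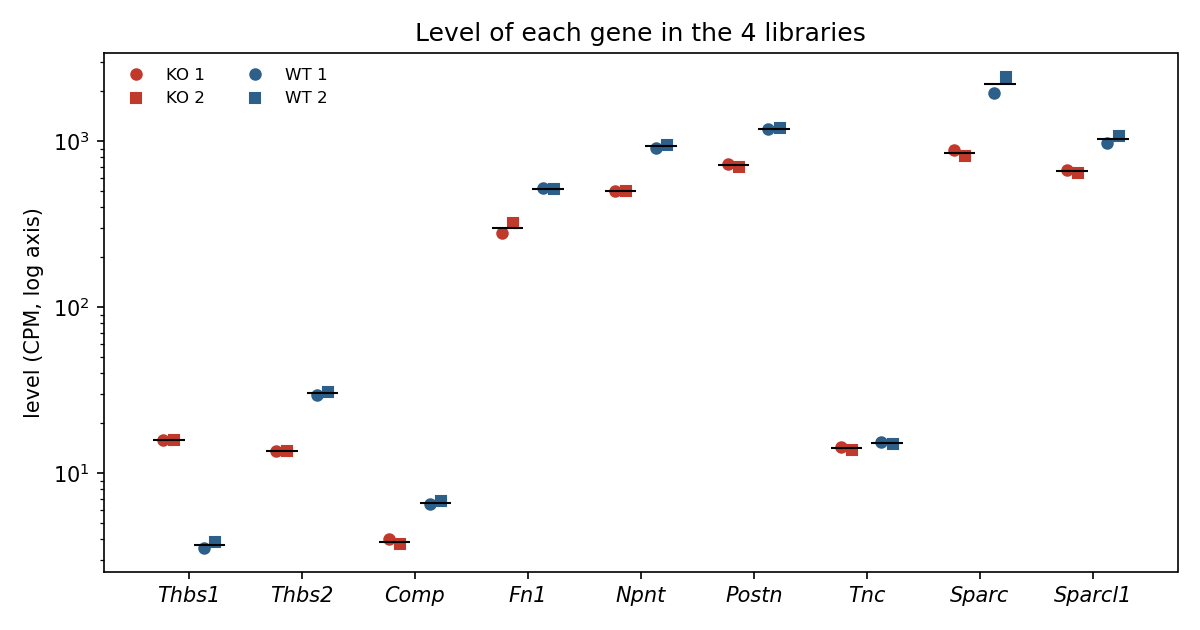
Level of the 9 detected genes in CPM on a log axis, with a point for each library (circles for replicate 1, squares for replicate 2) and a bar at the mean of each genotype, KO left of WT. KO points lie above WT points for Thbs1 and below them for the other genes, by little for Tnc.

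The thrombospondins moved in opposite directions. Thbs1 stood at 15.9 and 15.8 CPM in KO 1 and KO 2, against 3.53 and 3.86 CPM in WT 1 and WT 2. Both KO libraries lay far above both WT libraries, and the difference was 4.28-fold (log2 2.10, SE 0.10, adjusted p = 1.29e-05). Thbs2, the closest relative of Thbs1 in the family and a regulator of collagen fibril assembly and matrix protease uptake, stood at 13.5 and 13.6 CPM in KO and 29.6 and 30.9 CPM in WT. It fell to 44.9% of the WT level (log2 −1.15, SE 0.08, adjusted p = 5.43e-05).

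Comp, cartilage oligomeric matrix protein, which vascular smooth muscle also makes, was low in every library, with 238 and 192 UMIs in KO and 228 and 333 UMIs in WT. Scaled to depth this was 4.01 and 3.73 CPM in KO, against 6.53 and 6.76 CPM in WT (log2 −0.78, SE 0.13, adjusted p = 0.00414). Thbs4 had 0 UMIs in all 4 libraries, and 3 UMIs would have been 0.0507 to 0.0851 CPM, so its level was below that limit at this depth. Thbs3, the remaining family member, fell as well, at 18.3 and 16.7 CPM in KO and 27.9 and 26.3 CPM in WT (log2 −0.63, SE 0.08, adjusted p = 0.00166).

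Both cell-adhesive glycoprotein genes fell. Fibronectin (Fn1) stood at 277 and 320 CPM in KO and 520.5 and 512 CPM in WT, so that KO was at 57.8% of WT (log2 −0.79, SE 0.08, adjusted p = 0.000371). The KO libraries differed more from each other than the WT libraries did, and the difference was −0.69 without KO 1 and −0.90 without KO 2. Nephronectin (Npnt) stood at 499.5 and 503 CPM in KO and 912 and 944 CPM in WT, with narrow spread in both genotypes (log2 −0.89, SE 0.06, adjusted p = 4.43e-05).

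Of periostin and tenascin C, which bind each other and fibronectin in the matrix, Postn fell and Tnc did not pass the test. Postn stood at 731 and 692 CPM in KO and 1184 and 1192 CPM in WT (log2 −0.74, SE 0.06, adjusted p = 0.000116). Tnc stood at 14.3 and 13.8 CPM in KO and 15.4 and 14.9 CPM in WT. Its log2 difference of −0.10 (SE 0.08, adjusted p = 0.424) had a 95% interval of −0.30 to 0.09, which holds 0 and no fall as large as that of any of the 7 genes that fell. That interval is edgeR's, from 4 libraries. Tnxb, another tenascin gene, fell (32.2 and 33.4 CPM in KO, 104.9 and 91.8 CPM in WT, log2 −1.58, SE 0.08, adjusted p = 1.83e-05), and the tenascin genes Tnr and Tnn were too low to be tested.

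Sparc had the steepest fall among the members and Sparcl1 the mildest among those called. Sparc stood at 882 and 814 CPM in KO and 1949 and 2439 CPM in WT. The WT libraries lay further apart than the KO libraries, and both were above both KO libraries (log2 −1.37, SE 0.10, adjusted p = 9.85e-05). Without WT 1 the difference was −1.53 and without WT 2 it was −1.20. Sparcl1, also called hevin, a counter-adhesive relative of SPARC, stood at 665 and 644 CPM in KO and 973 and 1077 CPM in WT (log2 −0.65, SE 0.07, adjusted p = 0.000461). Of 6 further SPARC family genes 5 were tested and 2 fell, with 3 not passing. Fstl1, a secreted follistatin-like protein, was at 384 and 420 CPM in KO and 846 and 802 CPM in WT (log2 −1.03, SE 0.07, adjusted p = 5.12e-05), and Smoc2, which binds calcium and matrix, was at 2.10 and 2.94 CPM in KO and 5.39 and 5.10 CPM in WT (log2 −1.06, SE 0.19, adjusted p = 0.00583).

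**Figure D2:**
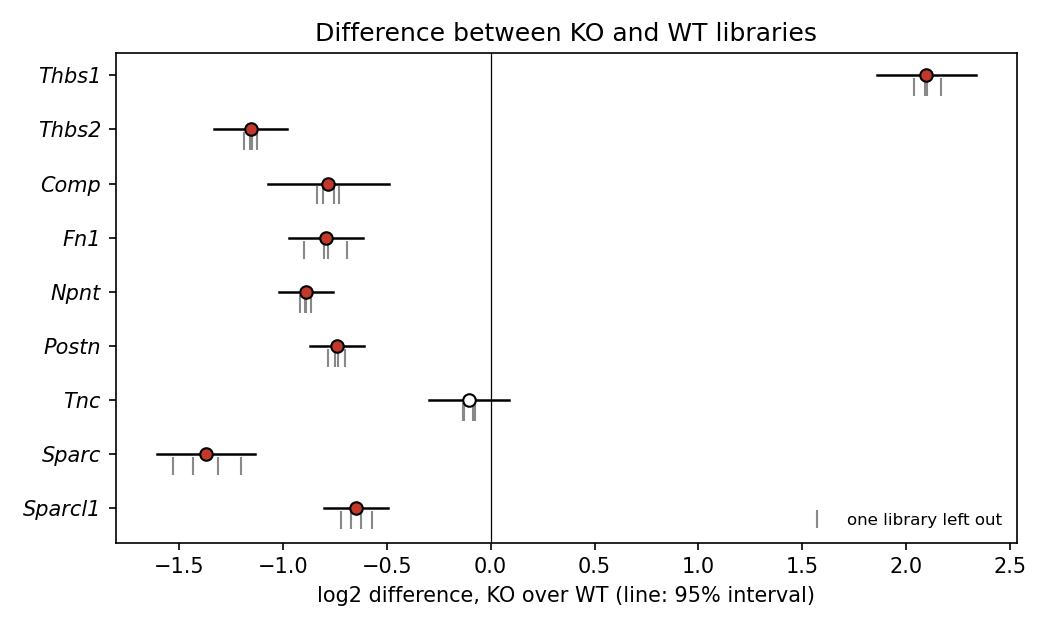
Log2 difference of KO over WT libraries for the 9 tested genes (circles, filled where the adjusted p was under 0.05) with edgeR's 95% interval (lines), and the same difference with each library left out in turn (grey ticks). Thbs1 lies at 2.10, Tnc at −0.10 with an interval that spans 0, and the other 7 genes between −1.37 and −0.65.

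Single cells show how widely each difference was spread. To compare cells of unlike depth, each kept cell with at least 5000 UMIs was thinned at random to 5000, which left out 150 and 169 KO cells and 197 and 162 WT cells. For Sparc and Npnt, which most cells express, the bulk of the distribution was shifted. The median cell held 4 and 4 UMIs of Sparc in KO 1 and KO 2, against 8 and 10 in WT 1 and WT 2. The highest single cell did not follow this in KO 1, with 100 UMIs of Sparc there, 54 in KO 2 and 65 in each WT library. Of the KO cells, 4.39% and 3.73% exceeded the median of all WT cells, which was 9 UMIs, against 40.4% and 56.4% of WT cells. For Npnt the median was 2 UMIs in each KO library and 4 in each WT library, and 13.2% and 15.5% of KO cells exceeded the WT median, against 45.8% and 46.4% of WT cells.

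Fn1, Postn and Sparcl1 overlapped more between genotypes. The share of cells above the WT median was 16.3% and 20.2% in KO and 33.6% and 35.4% in WT for Fn1, and 21.8% and 21.7% in KO and 44.2% and 44.8% in WT for Postn. For Sparcl1 it was 29.9% and 30.1% in KO and 45.3% and 49.6% in WT. The top 10% of cells held 42.3% and 39.8% of the UMIs of Fn1 in KO and 38.4% and 36.2% in WT. They held 32.8% and 33.7% (KO) and 28.2% and 27.5% (WT) of those of Sparcl1, and 27.1% and 28.7% (KO) and 25.9% and 26.4% (WT) of those of Postn. The Fano factor, the variance over the mean, which is 1 for counting noise alone, was 3.26 and 2.83 in KO and 3.69 and 3.87 in WT for Fn1. It was 3.63 and 3.80 in KO and 3.68 and 3.76 in WT for Sparcl1, so the order of these genes depends on the measure. That of Npnt was 1.48 and 1.65 in KO and 1.56 and 1.71 in WT.

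**Figure D3:**
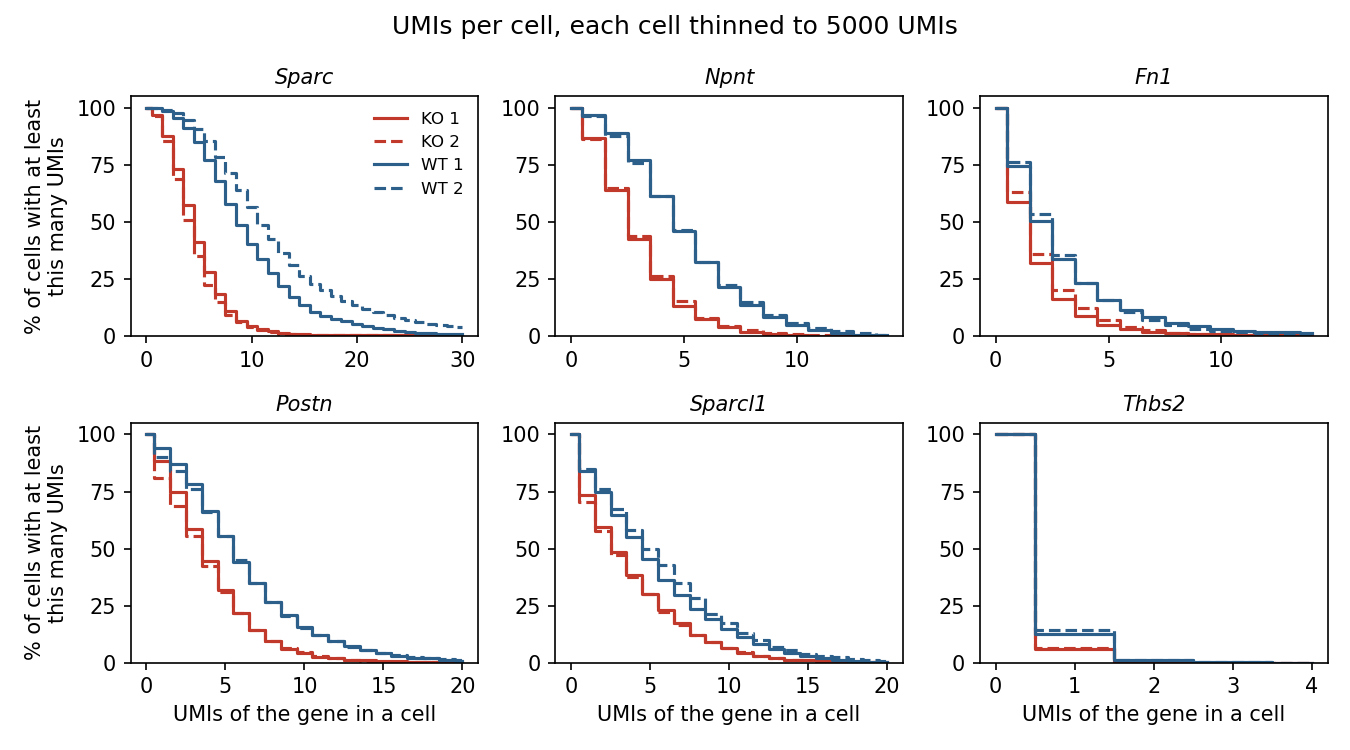
For Sparc, Npnt, Fn1, Postn, Sparcl1 and Thbs2, share of cells (vertical axis, %) with at least the given number of UMIs of a gene (horizontal axis), for cells thinned to 5000 UMIs, with a line for each library (solid for replicate 1, dashed for replicate 2). KO lines fall faster than WT lines in each panel. For Sparc the 2 WT lines are also apart from each other.

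The low genes were seen in few cells at this depth. Thbs2 had a UMI in 5.90% (95% exact interval 5.20% to 6.66%) and 6.56% (5.75% to 7.45%) of KO cells, against 12.3% (11.0% to 13.8%) and 14.2% (13.0% to 15.5%) of WT cells, and unthinned in 16.0% and 17.1% of KO and 32.0% and 34.8% of WT cells. Its Fano factor was 1.02 and 1.03 in KO and 1.09 and 1.03 in WT, close to counting noise, so its UMIs were not concentrated in few cells. At so few UMIs per cell the factor cannot show whether cells differed moderately. Tnc had a UMI in 6.29% and 5.73% of KO cells and 6.45% and 5.77% of WT cells, and these shares overlap. For the shares of cells with a UMI, the exact permutation test of 2 libraries against 2 (two-sided) cannot go below p = 0.333, which every detected member but Tnc reached (Tnc p = 0.667). These intervals cover counting error only, and no other cell type was frequent enough in the sort to measure the share that free RNA gives.

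Thbs1 was concentrated in few cells, as was Comp. Thbs1 had a UMI in 2.46% (2.01% to 2.98%) and 3.10% (2.54% to 3.75%) of KO cells, against 0.941% (0.583% to 1.43%) and 0.902% (0.600% to 1.30%) of WT cells. Unthinned, the shares were 4.30% and 5.00% in KO and 1.85% and 1.78% in WT. A single thinned cell held up to 20 and 17 UMIs of Thbs1 in KO 1 and KO 2 and up to 8 in either WT library, and its Fano factor was 6.86 and 5.10 in KO and 3.72 and 3.26 in WT. The top 1% of cells held 73.6% and 65.9% of its UMIs in KO and 100% in both WT libraries, where fewer than 1% of cells had any. Comp had a UMI in 1.63% and 1.31% of KO cells and 2.42% and 1.90% of WT cells, and the top 1% of cells held 69.8% and 83.6% of its UMIs in KO and 55.6% and 70.2% in WT. Its Fano factor was 1.68 and 2.85 in KO and 1.58 and 2.08 in WT.

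Cells were also grouped by Leiden clustering over all genes, and clusters 2 and 4 stood out for Thbs1. The leading genes of cluster 2 were Dcn, Lum, Vcam1, Ifit1, Ifit3, Isg15 and Thbs1 itself, and cluster 4 is the group of 9 KO cells led by endothelial genes. Because Thbs1 helped to define the clusters, its level there is a description. Per cell Thbs1 was highest on average in cluster 4, with 8 and 9.5 UMIs in KO 1 and KO 2 (40 UMIs in 5 cells and 38 UMIs in 4 cells, 4.24% and 4.67% of the Thbs1 UMIs of those libraries). Cluster 2 averaged 1.21 and 1.80 UMIs per cell in KO and 1.59 and 1.80 in WT. Before thinning it also held the single cell with the most in every library, with 83 and 63 UMIs in KO and 18 and 25 in WT. It made up 9.71% and 4.57% of KO cells, against 1.61% and 1.07% of WT cells. Of the Thbs1 UMIs it held 53.1% and 35.5% in KO and 50.4% and 33.2% in WT. In cluster 2 Thbs1 stood at 80.6 and 116 CPM in KO 1 and KO 2 (413 and 161 cells), against 117 and 116 CPM in WT 1 and WT 2 (39 and 35 cells). Outside it Thbs1 stood at 8.34 and 10.9 CPM in KO, against 1.76 and 2.58 CPM in WT. Outside clusters 2 and 4 it stood at 7.59 and 10.1 CPM in KO, with the WT values the same since no WT cell lay in cluster 4. In alternatives chosen after seeing the data, the log2 difference of Thbs1 was 2.09 without cluster 2 (edgeR adjusted p = 0.000162) and 1.98 without clusters 2 and 4 (SE 0.21, adjusted p = 0.000294).

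Fn1 was high in cluster 2 of the WT libraries in particular. It stood at 389 and 583 CPM there in KO, against 1562 and 1470 CPM in WT, and outside it at 265 and 312 CPM in KO, against 499 and 496 CPM in WT. Tnc followed the same order, at 20.6 and 24.6 CPM in cluster 2 of KO and 50.9 and 57.0 CPM in that of WT, with 13.7 and 13.5 CPM outside it in KO and 14.7 and 14.3 CPM in WT. The WT values in cluster 2 rest on 27 and 31 UMIs of Tnc. Over cluster 2 as a whole, smooth muscle markers summed to 46755 CPM, the cardiomyocyte list to 1717 CPM, the fibroblast list to 1009 CPM, the macrophage list to 68.7 CPM and the platelet list to 13.2 CPM. In cluster 1, made almost wholly of KO cells, the cardiomyocyte list came to 367 CPM and the fibroblast list to 633 CPM, and in cluster 6, made almost wholly of WT cells, to 240.3 and 647 CPM. The part of such RNA in the levels of Thbs1, Fn1 and Tnc in cluster 2 was not tested.

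**Figure D4:**
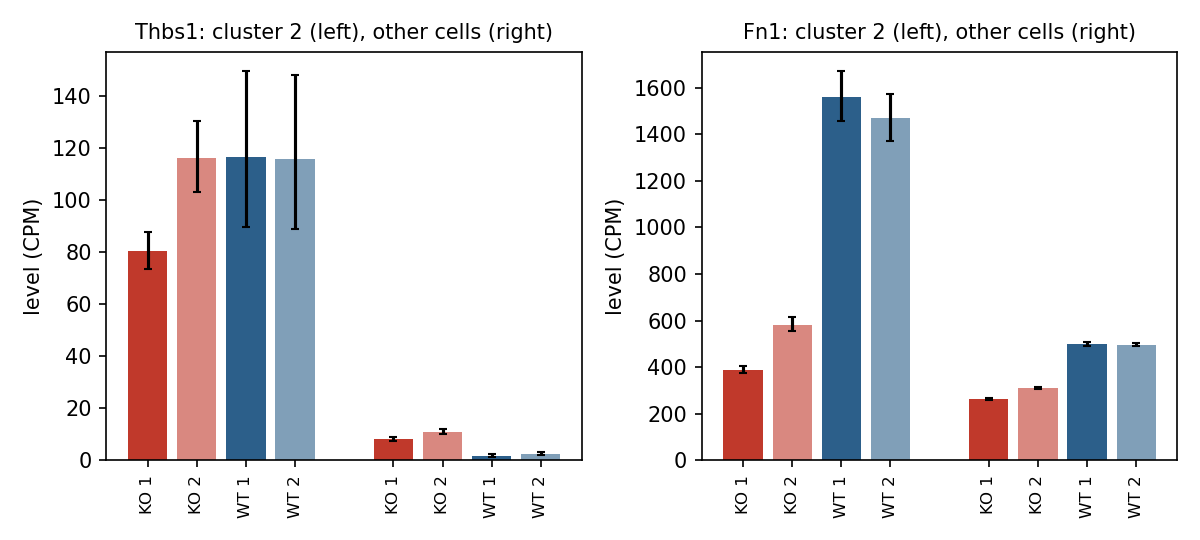
Level of Thbs1 and Fn1 in CPM of the summed cells of each library, in cluster 2 (left bars) and in all other kept cells (right bars), KO in red and WT in blue, with 95% exact Poisson intervals that cover counting error only. Thbs1 lies between 80.6 and 117 CPM in cluster 2 of every library, while outside it KO bars (8.34 and 10.9 CPM, the 9 cells of cluster 4 included) exceed WT bars (1.76 and 2.58 CPM). Fn1 in cluster 2 is lower in KO than in WT.

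Within each genotype the members also differed between cells with and without the homeobox genes Dlx5 and Dlx6. These genes, with Msx2 and Adamtsl1, were among the leading genes of a cluster of KO cells (cluster 3) and of a cluster made mostly of WT cells (cluster 7). Postn, for example, stood at 102 CPM in the KO cells of cluster 3 and at 242 CPM in the WT cells of cluster 7. To follow this with a split that uses none of the members, thinned cells were split by whether they held a UMI of Dlx5 or Dlx6, and sums of both fractions were compared within libraries in an edgeR fit with library as a block, across 12483 genes. This comparison was chosen after the cluster levels had been seen. The Dlx5/Dlx6-positive fraction held 185 and 368 KO cells and 92 and 244 WT cells, and 75.7% and 91.3% (KO) and 62.0% and 82.4% (WT) of those cells lay in clusters 3 and 7.

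Of the 9 tested members, 2 were higher and 5 lower in Dlx5/Dlx6-positive cells of KO, where 7.15% of all tested genes were higher and 9.13% lower. In WT likewise 2 were higher and 5 lower, where 5.47% of all tested genes were higher and 7.68% lower. Sparc stood at 1377 and 1106 CPM in positive KO cells, against 920 and 816 CPM in negative KO cells, and at 2910 and 4075 CPM in positive WT cells, against 1971 and 2442 CPM in negative WT cells. The log2 difference was 0.51 (SE 0.06, adjusted p = 2.09e-10) in KO and 0.66 (SE 0.05, adjusted p = 4.03e-14) in WT. Fn1 was also higher in positive cells, by 0.56 in KO (SE 0.07, adjusted p = 3.37e-09) and 0.43 in WT (SE 0.07, adjusted p = 2.85e-06).

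Postn and Sparcl1 showed the opposite pattern. Postn stood at 207 and 99.2 CPM in positive KO cells, against 793 and 803 CPM in negative KO cells, and at 458 and 312 CPM in positive WT cells, against 1269 and 1289 CPM in negative WT cells. Its log2 difference was −2.50 in KO (SE 0.11, adjusted p = 5.4e-24) and −1.80 in WT (SE 0.11, adjusted p = 1.95e-19). Sparcl1 was lower in positive cells by a log2 difference of −1.56 in KO (SE 0.08, adjusted p = 6.22e-21) and −1.61 in WT (SE 0.09, adjusted p = 7.57e-21). In each fraction the KO libraries lay below the WT libraries for Sparc, Fn1, Postn, Sparcl1, Npnt and Thbs2. The share of all tested genes without overlap was not computed for the fractions. In the sums of all kept cells it was 63.5%, in either direction.

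Tnc and Comp were lower in positive cells, on few UMIs. Tnc had 4 and 6 UMIs in positive KO cells and 3 and 3 in positive WT cells, with log2 differences of −2.17 in KO (SE 0.37, adjusted p = 7.14e-06) and −2.25 in WT (SE 0.46, adjusted p = 0.000207). Comp had 0 and 2 UMIs in positive KO cells and 1 and 0 in positive WT cells, with adjusted p = 0.0123 in KO and 0.00527 in WT. Npnt was lower in positive WT cells (log2 −0.46, SE 0.07, adjusted p = 3.61e-07) and did not pass in KO (−0.10, adjusted p = 0.36). Thbs1 was lower in positive KO cells (−1.77, SE 0.37, adjusted p = 0.000244) on 9 and 5 UMIs and did not pass in WT (adjusted p = 0.82). Thbs2 did not pass in either genotype (0.14 in KO, adjusted p = 0.782, and 0.47 in WT, adjusted p = 0.112). Its log2 difference in WT was 0.64 without WT 1 and −0.05 without WT 2. With clusters 3 and 7 in place of the gate, edgeR called Thbs2 higher in WT (0.48, adjusted p = 0.0497). Npnt was then called lower in KO (−0.22, adjusted p = 0.001). In that setting 1045 of 12490 tested genes were higher in WT and 1729 lower in KO. Leaving out KO 2 ended the calls of Thbs1 (log2 −0.59) and Comp in KO, and leaving out KO 1 ended that of Comp (−2.06). Leaving out WT 2 ended those of Tnc (−1.46) and Comp (−1.81) in WT. Each such fit leaves 1 library in that genotype, where fewer of all tested genes passed too. The difference between genotypes in these contrasts passed for Postn alone among the members (−0.70, SE 0.16, adjusted p = 0.0277), where 0.176% of all tested genes passed as higher and 0.192% as lower, 0.369% in all. That call was lost without KO 2 (−0.17, adjusted p = 0.997) and without WT 1 (−0.47, adjusted p = 0.0651). For Npnt the difference was 0.36 (adjusted p = 0.0683), and it was 0.49 without WT 2 (adjusted p = 0.0112).

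**Figure D5:**
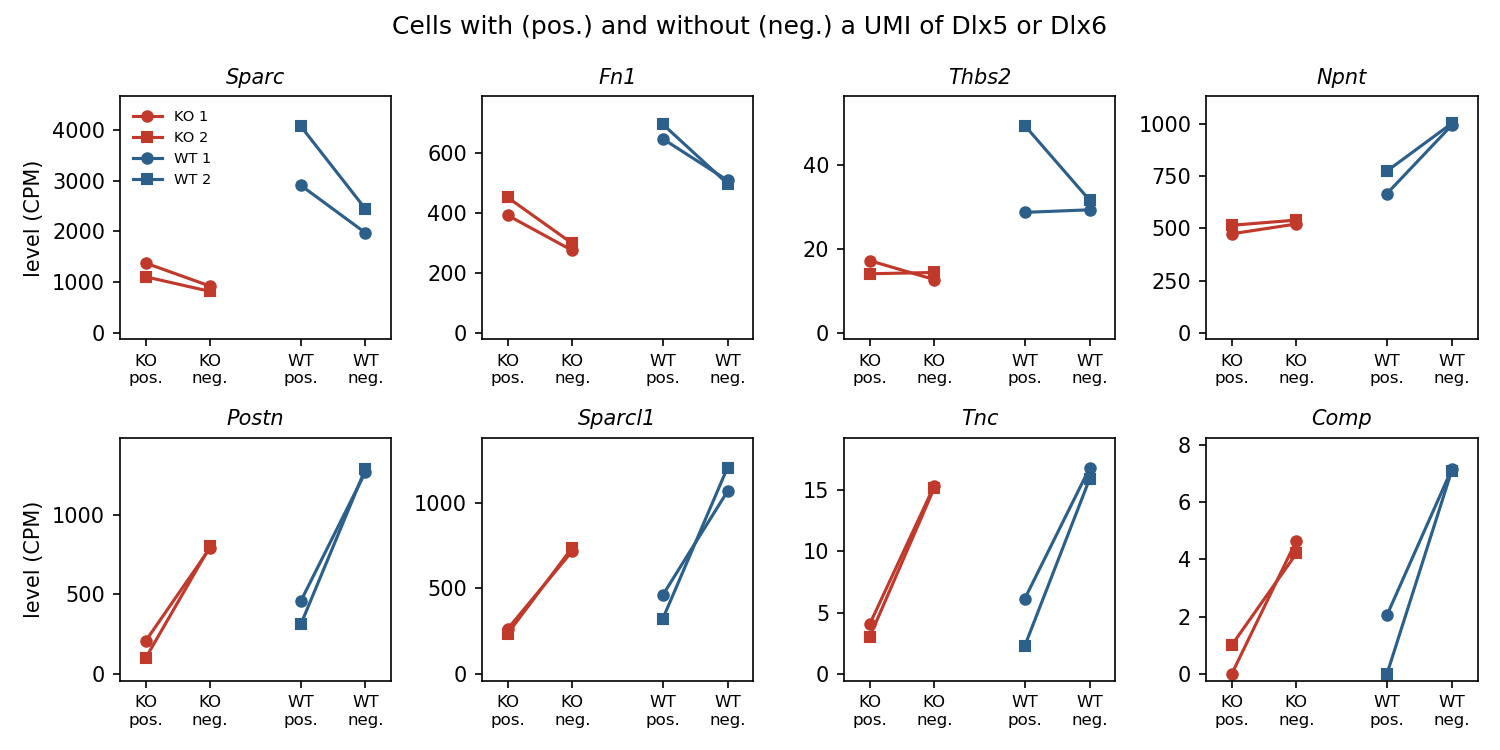
Level in CPM of 8 genes in cells with (pos.) and without (neg.) a UMI of Dlx5 or Dlx6, after thinning to 5000 UMIs, with a line joining both fractions of each library, KO in red and WT in blue, circles for replicate 1 and squares for replicate 2. Sparc and Fn1 are higher and Postn, Sparcl1, Tnc and Comp lower in positive cells of both genotypes.

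Correlations over the same thinned cells were computed within each library on log2(UMIs + 1). They are given as a description, since the cells of a library share its preparation and the mix of regions. Some pairs went with the division by Dlx5 and Dlx6 and others did not. Fn1 and Postn had r of −0.02 and −0.12 in KO but 0.15 and 0.07 in WT. Tnc and Sparcl1, both lower in positive cells, had r of −0.01 and −0.02 in KO and −0.04 and −0.06 in WT. Postn and Sparcl1 had the highest mean correlation of the 36 member pairs (r of 0.15 and 0.29 in KO and 0.15 and 0.30 in WT), and Sparc and Sparcl1 the most negative (−0.12 and −0.15 in KO and −0.10 and −0.23 in WT). Among 5073 genes detected in at least 10% of cells of every library, Sparc varied most closely with the collagen gene Col1a2 (mean r over 4 libraries 0.29), the microfibril gene Mfap5 (0.28), Col1a1 (0.23), elastin (Eln, 0.22) and Rgs5 (0.22). Sparcl1 varied most closely with genes of the contractile and actin apparatus, Dstn (0.26), Tpm2 (0.25), Myh11 (0.23) and Flna (0.21), besides Postn (0.22). Postn went with Aebp1 (0.28), an aortic collagen-binding protein, Tmsb4x (0.25), Flna (0.24) and Tagln (0.22).

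For the other genes these correlations were weaker. Fn1 was closest to Sfrp2 (mean r 0.20), Ltbp1 (0.18), Col1a2 (0.17), Bgn and Anxa1 (0.16 each). Npnt was closest to Col18a1 and Sost (0.17 each), and Itga8, the chain of its known receptor, came next with 0.16, followed by Myh11 (0.16) and Postn (0.14). With Thbs2 the highest mean r was 0.0503 (Col1a2), and Thbs2 is too sparse at this depth to read.

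Receptors of these proteins mostly fell or did not pass. Among 28 tested receptor genes there were 12 that fell, 2 that rose and 14 that did not pass. Of all tested genes 11.1% fell and 9.17% rose. The receptor genes had a median log2 difference of −0.37, against −0.004 over all tested genes. Itgb5 (150 and 145 CPM in KO, 295 and 302 CPM in WT, log2 −1.02, SE 0.06, adjusted p = 3.33e-05) and Itgb3 (39.7 and 39.9 CPM in KO, 77.9 and 74.9 CPM in WT, log2 −0.94, SE 0.07, adjusted p = 7.47e-05) encode beta chains of integrins that bind fibronectin, periostin or vitronectin. Ptprz1, a receptor phosphatase that binds tenascins, stood at 128 and 155 CPM in KO and 395 and 356 CPM in WT (log2 −1.41, SE 0.10, adjusted p = 7.98e-05). Itga8 stood at 1131 and 1222 CPM in KO and 1786 and 1672 CPM in WT, and it fell as its ligand Npnt did (log2 −0.56, SE 0.06, adjusted p = 0.000801).

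Among proteins that bind the members in the matrix or process them, 29 were tested, of which 13 fell, 6 rose and 10 did not pass. These 29 had a median log2 difference of −0.42. For this list and the next, the shares over all tested genes were 11.1% lower and 9.17% higher. The 3 with the smallest p were collagen Col3a1 (−1.63, SE 0.06), the crosslinking enzyme gene Lox (−2.15, SE 0.08) and aggrecan (Acan, −1.67, SE 0.08), with adjusted p-values from 2.98e-06 to 8.63e-06. Of 16 other TGF-beta target genes, a list chosen with results of these data known, 13 fell, 2 rose and 1 did not pass. Their median was −1.59, and the smallest p-values belonged to Pmepa1 (−3.00, SE 0.07) and Nox4 (−2.59, SE 0.09), with Col3a1 again among the first 3. Among the members on that list Thbs1 rose and Tnc did not pass, while Fn1 and Postn fell by less than the median. Of 5 relatives of periostin, nephronectin and fibronectin, Egfl6 and Vtn had no UMI, and both tested genes, Tgfbi and Fndc1, rose at very low levels. Tgfbi stood at 0.404 and 0.311 CPM in KO and 0.0287 and 0.0203 CPM in WT (1 UMI in each WT library, adjusted p = 0.00518). Fndc1 stood at 0.438 and 1.05 CPM in KO and 0.0860 and 0.0812 CPM in WT (adjusted p = 0.0101).

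Markers of other cell types were set beside these results, since platelets, macrophages and endothelial cells also make Thbs1 and fibroblasts make several members. The 8 platelet markers summed to 4.38 and 2.86 CPM in KO and 2.18 and 2.17 CPM in WT, of which Ppbp, Gp1ba and Gp9 were at 0 in every library. For the 15 macrophage markers the sum was 13.4 and 2.18 CPM in KO and 2.24 and 1.89 CPM in WT, so KO 1 stood apart. The 12 fibroblast markers summed to 678 and 647 CPM in KO and 653 and 681 CPM in WT, most of it Gsn, and of 11 tested 5 rose, 1 fell and 5 did not pass. Of 13 endothelial markers, together 187 and 199 CPM in KO and 188 and 192 CPM in WT, 10 were tested, of which 6 rose and 2 fell. Over all tested genes 9.17% rose and 11.1% fell. The 8 cardiomyocyte markers came to 513 and 406 CPM in KO and 213 and 246 CPM in WT, and the 7 pericyte markers to 545 and 713 CPM in KO and 769 and 880 CPM in WT. The part of these lists in the results was not tested. Among smooth muscle-like clusters alone, the log2 difference was 2.07 for Thbs1, −1.37 for Sparc and −0.79 for Fn1. These are all clusters but cluster 4 and cluster 8, the latter of 106 cells with a median of 1492 UMIs. They include cluster 2 and hold 4225 and 3478 KO cells and 2406 and 3244 WT cells. So few cells were left out that these values cannot show the part of such RNA.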

How the data were processed

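The deposited matrices hold raw UMI counts per gene and cell barcode, and, per the file headers, they come from Cell Ranger 5.0.1. The submitters' processing notes name the build mm10 and, without a role, Seurat 4.0. Whether counting used strand is not given in the sources used here. The matrices hold 14696 barcodes (4504, 3858, 2769 and 3565 in KO 1, KO 2, WT 1 and WT 2), against 4376, 3707, 2597 and 3420 cells before and 4031, 3246, 2151 and 3000 after filtering in the labels.

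Kept were 13468 cells with 1000 or more UMIs, 500 or more genes and no more than 10% of UMIs from mitochondrial genes. Their counts were summed per library, scaled with TMM and tested with edgeR 4.0.16 (R 4.3.3; glmQLFit and glmQLFTest, two-sided, default expression filter, Benjamini-Hochberg adjustment over 14474 genes, threshold 0.05). DESeq2 1.42.0 and limma-voom 3.58.1 were alternatives. These tests were tried on simulated data with known changes. The common biological coefficient of variation was 7.84%, and libraries of a genotype differed by more than counting error (chi-square per gene 16.0 in KO, 14.2 in WT). Clusters came from scanpy 1.11.5 (2000 variable genes, 30 components, 15 neighbours, Leiden resolution 0.5, seed 1). No doublet was removed for the reported values. Scrublet's own threshold marked 1, 4, 23 and 7 cells of KO 1, KO 2, WT 1 and WT 2, too few to rely on, and an alternative removed the 145, 99, 47 and 85 with the highest scores. A floor of 3 UMIs stands for a count of 0.

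The members and gene lists were chosen with earlier results of these data known. The text names every member, up to 3 called genes per list (those of lowest p), and the 5 genes that correlate most with each member averaging at least 20 CPM. The split by Dlx5 and Dlx6, the TATA box search and the test value of Itga8 were added after seeing the data. A planned comparison of protein sequences was not run.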

Additional observations from a re-analysis of the deposited data

Results flagged for a closer look

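The log2 difference of Postn between Dlx5/Dlx6-positive and negative cells was lower in KO than in WT, with a difference of −0.70 (SE 0.16, adjusted p = 0.0277 for the difference between genotypes in edgeR's fit), where 0.369% of all tested genes passed in either direction. The share of its level kept in positive cells was lowest in KO 2, with 99.2 CPM against 803 CPM in negative cells. The libraries of the genotypes overlapped in this share. KO 1, with 207 CPM against 793 CPM, kept a larger share than WT 2, with 312 CPM against 1289 CPM. WT 1 kept the largest, with 458 CPM against 1269 CPM. The difference was −0.17 without KO 2 (adjusted p = 0.997), −0.47 without WT 1 (0.0651), −1.25 without KO 1 and −1.03 without WT 2. With a gate of at least 2 UMIs of Dlx5 and Dlx6 it was −0.24 (0.989). With clusters 3 and 7 in place of the gate it was −0.49 (0.00212). Leaving out KO 2 or WT 1, or the stricter gate, ended the call, and the clusters in place of the gate kept it. Those clusters are no independent check. They were made without leaving out the members, and the comparison was chosen after the levels in them had been seen. Cluster 3 held KO cells alone and cluster 7 mostly WT cells.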

How the results depend on the processing

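The 8 called members kept their direction and their call in all 142 combinations of member and alternative that gave a value: other normalizations, DESeq2, limma-voom, no gene filter, other cell filters, doublets removed, thinned cells, smooth muscle-like clusters alone, cells without cluster 2 or without clusters 2 and 4, the replicate block and each library left out. Log2 differences ran from 1.98 to 2.26 for Thbs1, −1.53 to −1.20 for Sparc and −0.90 to −0.69 for Fn1 and for Comp, whose highest adjusted p was 0.0301. With the replicate block 1 member was higher and 7 were lower, among 1523 higher and 1751 lower genes. The numbers were not shown to pair the samples: the deviations of same-numbered libraries had a correlation of −0.02 over 5724 genes. Where tests were limited to genes averaging 20 CPM or more, Thbs1, Comp and Tnc were not tested, so by edgeR 0 members were higher and the 6 tested were all called lower, among 625 higher and 918 lower genes. Leaving out a library gave 805 to 1161 higher and 1039 to 1297 lower genes, the lowest without WT 1. At 2000 UMIs per cell the share of cells with a UMI of Tnc differed by 0.0114 percentage points, against a negative difference at 5000, both within the spread of libraries. In Dlx5/Dlx6-positive cells 3 to 5 members were lower in KO and 3 to 5 in WT when a library was left out. The genotype difference of Postn there ran from −1.25 to −0.17 with a library left out and was −0.24 with a gate of at least 2 UMIs, and that of Npnt ran from 0.27 to 0.49. The gate of at least 2 UMIs called Thbs1 in edgeR's fit (−10.7, SE 2.77, adjusted p = 0.0398). It left 66 and 158 positive KO cells and 31 and 92 positive WT cells, where Thbs1 is too sparse to read. With clusters 3 and 7 in place of the gate Postn stayed called (−0.49) and Npnt was called (0.31). Those clusters were made without leaving out the members, so that split is not independent of them. Without a gene filter 1972 genes were higher and 2113 lower. Depth limits Thbs4, Comp and the sparse cells of Thbs1, and 2 libraries a genotype limit every test.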
